A study of Mus musculus with 12 samples.

Results

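Cells grown for 14 days in the reprogramming mixture FIBCL were compared with cells kept for the same time in the control medium SCDM. All 3 FIBCL and all 3 SCDM libraries entered the comparison, which is 6 of the 12 libraries of the series, and every gene of the table was read and then grouped by function. The study asked whether a combination of small molecules moves glial cells of the mouse cochlea towards spiral ganglion neurons (SGNs), and poly(A) RNA of the cultures was sequenced. The other libraries came from the starting spheres (3) and from SCDM/FGF (3), and their levels are given beside single genes as background.

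All groups started from glial spheres raised from the spiral ganglia of postnatal day 4 mice on a mixed C57Bl6 and FVB/N background, with tissue of several animals pooled. The titles name the 3 libraries of each group as biological replicates. SCDM was DMEM/F12 with B27 and N2, to which BDNF and NT3 were added at 50 ng/ml each, and SCDM/FGF held bFGF at 100 ng/ml besides. FIBCL was Neurobasal with the same supplements, Forskolin at 20 µM, ISX9 at 20 µM, I-BET at 1 µM, CHIR99021 at 10 µM, LIF at 1000 U/ml and bFGF, for which the labels list both 50 and 100 ng/ml. Neither BDNF nor NT3 is listed for FIBCL. The base medium, the neurotrophins and the added agents thus differed together, and their parts in any difference cannot be told apart. The labels name no cell sorting, so a culture could hold cells other than glia and neurons.

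SGNs carry sound information from the hair cells of the organ of Corti to the brainstem, and Schwann cells and satellite glia ensheathe them. Forskolin activates adenylyl cyclase and raises cyclic AMP, CHIR99021 inhibits GSK3 and so stabilises beta-catenin, I-BET compounds keep BET bromodomain proteins off acetylated chromatin, and LIF signals through gp130 and STAT3. ISX9 is a small molecule used to induce neuronal genes, and bFGF acts through FGF receptors and the MAP kinase cascade. Each of these routes has well known target genes, which can be read in bulk RNA.

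Levels are given as scaled TPM for replicates 1, 2 and 3 in that order, and differences as log2 fold changes, FIBCL over SCDM, on log2(scaled TPM + 1) with their standard error. Of 55487 genes, 16016 reached 1 TPM in at least 3 of the 12 libraries and were tested by limma with Benjamini-Hochberg adjustment. A gene that reached the limit through 1 medium alone had to differ, so a count over tested genes describes a list and supports nothing. A gene was called when its adjusted p was under 0.05 and it differed at least 2-fold. Libraries were rescaled to a common level over well expressed genes, and where leaving this out, or quantile normalisation in its place, ended the call of a named gene, or moved a count by over 1.5 times and by 3 genes or more, that value stands beside it. By this rule 2107 genes (13.2%) rose and 2588 genes (16.2%) fell in FIBCL, and the median of all genes tested lay at −0.07 on the log2 scale. Across genes, FIBCL libraries had a Pearson r of 0.983 to 0.985 with each other, SCDM libraries 0.983 to 0.984, and libraries of the different media 0.788 to 0.797. The listed values added up to 899295 to 911076 TPM per FIBCL library and 983632 to 986243 per SCDM library, and the read numbers behind them are unknown. A total of 84 genes were at 0 in all SCDM libraries and at least at 1 scaled TPM in all FIBCL libraries, and 95 genes showed the reverse. The plot of called shares by functional list shows where the differences lay among 59 lists.

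**Figure D1:**
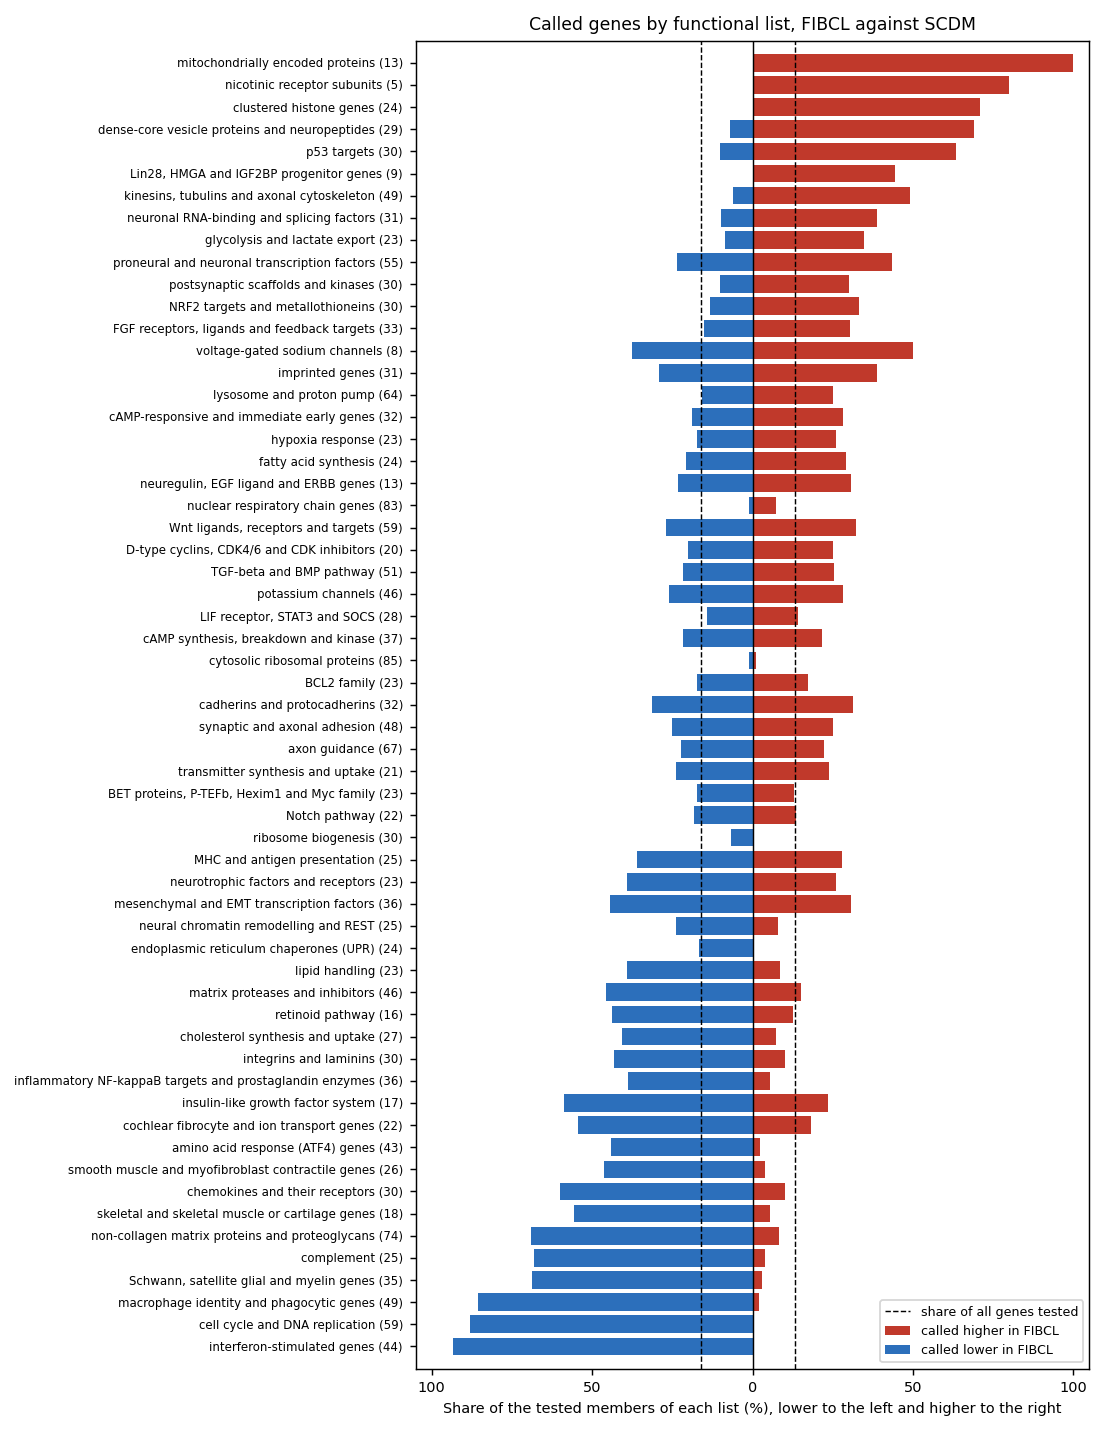
Share of the tested members of each functional list that were called higher (red, to the right) or lower (blue, to the left) in FIBCL than in SCDM, in percent, with the number of tested members in brackets and dashed lines at the shares of all genes tested (13.2% and 16.2%). Interferon-stimulated, cell cycle, macrophage and Schwann cell genes lie far to the left, and mitochondrially encoded, histone, dense-core vesicle and p53 target genes lie far to the right.

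The neuronal name of the FIBCL cultures was checked against defining markers. The summed level of 10 pan-neuronal markers was 471 to 492 scaled TPM in FIBCL against 18.8 to 21.7 in SCDM. Stmn2, Tubb3 and Nefl made up most of that sum. Elavl3 and Snap25 passed the expression limit only through FIBCL. Elavl4 and Rbfox3, which encode RNA-binding proteins of neurons, were not tested, at FIBCL means of 0.506 and 0.949 and SCDM means of 0.0905 and 0.0156. The 15 SGN markers summed to 191 to 198 in FIBCL and 94.2 to 97.5 in SCDM. Their sums were higher than in FIBCL in SCDM/FGF, at 244.6 to 291.9, and in spheres, at 212.9 to 213.2.

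Markers of other cell types moved with the same contrast. Schwann and satellite glial markers summed to 17.2 to 23.1 in FIBCL and 195 to 226 in SCDM, and 9 of 10 fell. Mesenchymal markers summed to 292 to 313 against 5990 to 6217, with 9 of 13 lower and 3 higher. Macrophage markers summed to 169 to 200 against 1857 to 2069, with 11 of 12 lower. What remained of the mesenchymal sum in FIBCL was mostly Twist1, Twist2, Prrx1 and Prrx2, and what remained of the macrophage sum was nearly all Cd68, at 152, 177 and 165. Chondrocyte and osteoblast markers summed to 23.8 to 24.4 against 4296 to 4530, nearly all of it Col2a1. Endothelial markers summed to 31.2 to 33.6 against 74.3 to 80.0, with 2 of 9 tested higher and 3 lower. Flt1 and Kdr, at FIBCL means of 18.5 and 10.1, made up most of the FIBCL sum, Emcn was at 0 in all FIBCL libraries, and Cldn5 was at 0 in both groups. In bulk RNA, fewer cells of a type and less RNA per cell cannot be told apart, so every group below describes the culture as a whole.

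**Figure D2:**
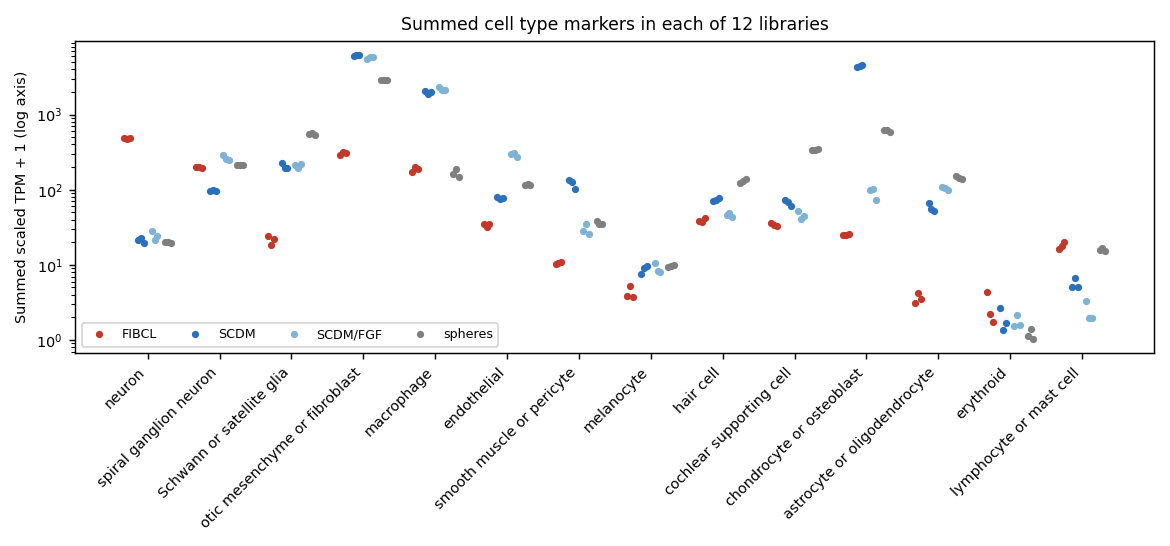
Summed scaled TPM + 1 (log axis) of the markers of 14 cell types in each of the 12 libraries, with 1 point per library. The FIBCL points (red) stand above the SCDM points (dark blue) for neuronal and SGN markers and far below them for glial, mesenchymal, macrophage, smooth muscle and chondrocyte markers. For SGN markers the SCDM/FGF and sphere points lie above FIBCL.

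Genes of regulated secretion rose more often than they fell. Dense-core vesicles store neuropeptides and hormones with granins, which help to pack them, and with the convertases that cut the precursors. Of 42 genes listed, 29 were tested, 20 rose and 2 fell, and the median on the log2 scale was 1.72. Counted over all 42, the 3 FIBCL libraries lay above the 3 SCDM libraries for 29 genes and below them for 5, against 34.0% above and 40.7% below among all genes tested. Vgf, a granin-like neurotrophin-responsive precursor at chr5:137026392-137033351 (GRCm38), was 575, 496 and 514 in FIBCL and 0.476, 0.458 and 0.539 in SCDM (log2 fold change 8.47 ± 0.10, adjusted p = 6.7e-14). Its SCDM/FGF mean was 1.34 and its sphere mean 0.5704, so the high level was seen in FIBCL and in no other group. Chga, which encodes chromogranin A, was 90.5, 81.6 and 88.5 in FIBCL and 0, 0.0374 and 0 in SCDM (log2 fold change 6.44 ± 0.09, adjusted p = 3.1e-13). Ptprn, a transmembrane protein of the granule membrane, was 217, 205 and 211 in FIBCL and 1.58, 1.7 and 1.08 in SCDM (log2 fold change 6.44 ± 0.09, adjusted p = 3.9e-13). Unlike Vgf and Chga, Ptprn was also at a mean of 80.3 in SCDM/FGF and 16.3 in the spheres.

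Peptide precursors did not all move one way. Nts, the neurotensin precursor, was 113, 126 and 129 in FIBCL and 0, 0 and 0.0661 in SCDM (log2 fold change 6.92 ± 0.09, adjusted p = 1.3e-13). Npy, the neuropeptide Y precursor, was 204, 239.6 and 225 in FIBCL and 1.16, 0.635 and 2.84 in SCDM (log2 fold change 6.55 ± 0.26, adjusted p = 9.6e-10), with a sphere mean of 9.44. Gal, the galanin precursor, was 13.8, 12.5 and 12.02 in FIBCL and 0, 0.243 and 0.161 in SCDM (log2 fold change 3.60 ± 0.17, adjusted p = 4.7e-09). The groups did not overlap for any of these 3 genes, and in SCDM none of them reached 3 scaled TPM. Penk, the precursor of the enkephalins, went the other way at 5.09, 5.998 and 5.98 in FIBCL and 585, 610.4 and 745 in SCDM (log2 fold change −6.59 ± 0.29, adjusted p = 2.6e-09), with means of 30.9 in SCDM/FGF and 1.98 in spheres. Adm, which encodes the vasodilator adrenomedullin, fell as well (log2 fold change −3.54 ± 0.20), with an SCDM/FGF mean of 233. The release and processing machinery rose with the granins, with Scg3 at 66.7, 69.5 and 68.1 in FIBCL and 1.44, 0.616 and 0.6804 in SCDM (log2 fold change 5.20 ± 0.18, adjusted p = 2.5e-10). Cadps, the priming factor of dense-core vesicles, was 22.9, 26.2 and 25.1 in FIBCL and 0.438, 0.579 and 0.189 in SCDM (log2 fold change 4.21 ± 0.27, adjusted p = 6.6e-08). Scg5, a chaperone of the convertase PC2, had a log2 fold change of 4.96 ± 0.18, and the convertase genes Pcsk1 (1.57 ± 0.11) and Pcsk2 (1.16 ± 0.09, or 0.85 without the rescaling) rose less. Cpe, the carboxypeptidase that trims the peptides, was 488, 510.2 and 490.1 in FIBCL and 279, 258 and 259 in SCDM, a difference under 2-fold. The summed level of the list was 2084, 2063 and 2064 in FIBCL and 1018, 1017 and 1150 in SCDM, where Penk was the largest member.

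The axonal cytoskeleton was the next neuronal group. Of 51 kinesin, tubulin, stathmin and neurofilament genes, 49 were tested, 24 rose and 3 fell, with a median of 1.00. Stmn4, a neuronal stathmin that regulates microtubule assembly, was 160.4, 184 and 157 in FIBCL and 0.181, 0.85 and 0.586 in SCDM (log2 fold change 6.79 ± 0.24, adjusted p = 4.1e-10). Crmp1, a collapsin response mediator of growth cones, was 113, 110.0 and 109.6 in FIBCL and 0.438, 0.4203 and 0.5197 in SCDM (log2 fold change 6.26 ± 0.16, adjusted p = 2.6e-11). Kif5c, a neuronal kinesin heavy chain, was 68.4, 71.01 and 66.7 in FIBCL and 0.952, 2.46 and 1.68 in SCDM (log2 fold change 4.73 ± 0.30, adjusted p = 6.1e-08). All 3 were below 3 scaled TPM in every SCDM library. The neurofilament genes were unequal, with Nefm at 75.8, 64.3 and 68.8 and Ina at 15.9, 18.3 and 16.9 in FIBCL, while the heavy chain gene Nefh reached only 1.81, 1.82 and 1.58. Gap43, a growth cone protein, fell from 201, 181 and 196 in SCDM to 70.95, 77.6 and 71.01 (log2 fold change −1.38 ± 0.08), and Dpysl3 and Tubb2a fell as well.

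Ion channel genes split by subunit. Of 77 potassium channel genes, 46 were tested, 13 rose and 12 fell, with a median of −0.13 that turned to 0.02 after quantile normalisation. The changes ran from −2.68 to 4.35, so the largest was a rise. Kcnn4 and Kcnma1, calcium-activated potassium channels, fell with log2 fold changes of −2.68 ± 0.12 and −2.45 ± 0.14. Among 15 voltage-gated sodium channel genes of the table, 8 were tested, 4 rose and 3 fell. Scn8a, the main pore subunit of mature axons, was 10.1, 9.84 and 7.73 in FIBCL and 0.286, 0.196 and 0.633 in SCDM (log2 fold change 2.90 ± 0.20, adjusted p = 1.4e-07). The auxiliary subunit gene Scn3b was 26.9, 25.6 and 25.1 in FIBCL and 1.31, 0.831 and 1.34 in SCDM (log2 fold change 3.64 ± 0.11, adjusted p = 1.3e-10). Scn2a, Scn7a and the leak channel gene Nalcn fell, with log2 fold changes of −1.43, −1.39 and −1.85.

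Transmitter genes moved both ways. Of 36 genes of transmitter synthesis and uptake, 21 were tested, 5 rose and 5 fell. Slc17a7, the vesicular glutamate transporter used by SGNs, was 11.2, 10.8 and 10.4 in FIBCL and 0.1904, 0.121 and 0.198 in SCDM (log2 fold change 3.34 ± 0.09, adjusted p = 6.0e-11). Gad1, which makes GABA, was 13.6, 12.96 and 12.9 in FIBCL and 0.219, 0.196 and 0.227 in SCDM (log2 fold change 3.54 ± 0.23, adjusted p = 6.5e-08). Slc32a1, the vesicular GABA transporter, was 7.63, 8.498 and 7.41 in FIBCL and 0, 0 and 0.0378 in SCDM (log2 fold change 3.13 ± 0.09, adjusted p = 5.9e-11). Slc17a7, Gad1 and Slc32a1 thus stood at like levels per length, between 7.41 and 13.6 scaled TPM, and for them no FIBCL library overlapped with SCDM. Slc18a3, the vesicular acetylcholine transporter, reached 2.74, 2.27 and 2.404 from 0 in all SCDM libraries, and Ache, which encodes acetylcholinesterase, rose by 2.77 ± 0.12. The 5 that fell included the glial glutamate and glycine transporters Slc1a3 (−4.00 ± 0.11) and Slc6a9 (−3.25 ± 0.12). Of 16 nicotinic receptor subunits, 11 were under the expression limit. Of the 5 tested, Chrna5, Chrnb2, Chrna7 and Chrnb1 rose and none fell. Chrna7, the homomeric neuronal subunit, was 14.7, 15.7 and 15.2 in FIBCL and 2.63, 3.101 and 2.27 in SCDM (log2 fold change 2.15 ± 0.16, adjusted p = 2.7e-07).

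**Figure D3:**
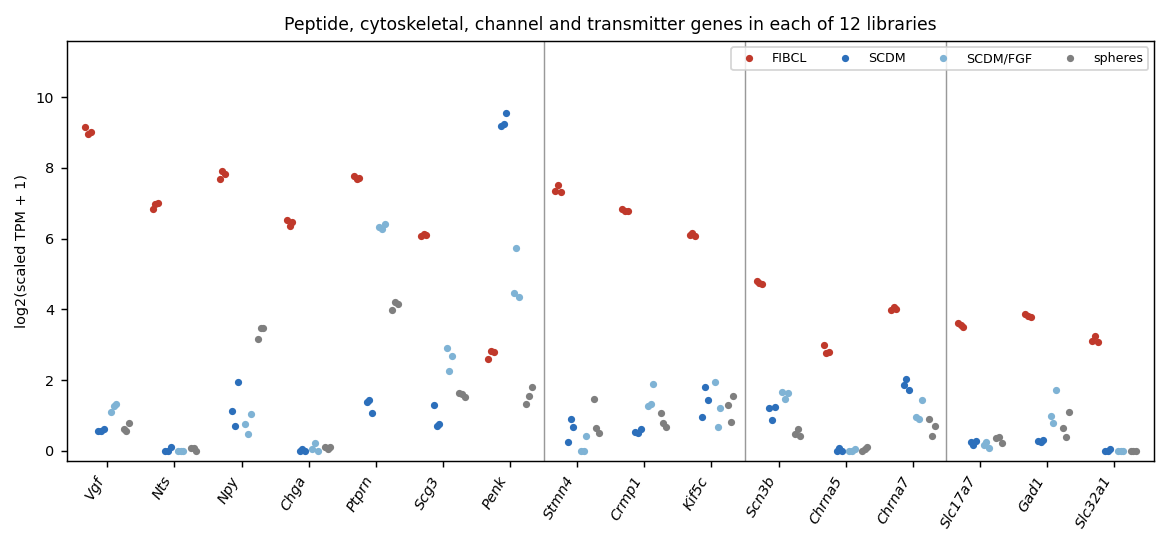
log2(scaled TPM + 1) of peptide and granule genes, cytoskeletal genes, channel and receptor genes, and transmitter genes, separated by grey lines, with 1 point per library in the 4 groups. The 3 FIBCL points lie above the points of all other groups for every gene but Penk, where SCDM is highest, and SCDM/FGF comes nearest to FIBCL for Ptprn.

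Other neuronal lists were mixed. Axon guidance had 15 genes higher and 15 lower of 67 tested, and synaptic adhesion 12 higher and 12 lower of 48, or 6 and 13 without the rescaling. Draxin, a netrin-binding repulsive guidance protein, was 34.02, 37.6 and 36.3 in FIBCL and 0.181, 0.0654 and 0.123 in SCDM (log2 fold change 5.04 ± 0.14, adjusted p = 4.8e-11). Sema3d, a repulsive semaphorin, was 0.311, 0.222 and 0.302 in FIBCL and 11.3, 10.7 and 8.84 in SCDM (log2 fold change −3.14 ± 0.14, adjusted p = 3.2e-09). Cadm2 (3.86 ± 0.10) rose, and Cntn3 (−2.53 ± 0.13), Tenm3 (−2.47 ± 0.10) and Ncam1 (−1.46 ± 0.07) fell. In the list of postsynaptic scaffolds 9 of 30 rose and 3 fell, or 6 and 6 without the rescaling, with Gphn counted among those that rose. Iqsec3, which works at inhibitory synapses, rose as well and was 5.097, 4.46 and 4.99 in FIBCL and 0.01904, 0.0374 and 0.0472 in SCDM (log2 fold change 2.50 ± 0.09, adjusted p = 3.6e-10). Camk2a, the forebrain form of the postsynaptic kinase, fell (log2 fold change −1.51 ± 0.21). Gphn, whose protein gephyrin anchors inhibitory receptors, is not read as synaptic here, because it belongs to 8 entries of the table, most of them very abundant, that were all higher in FIBCL. These 8 (Gphn, Cmss1, Lars2, Sspn, D130009I18Rik, CT010467.1, Gm24270 and Mir6236) held 14.7, 14.7 and 18.2% of the listed TPM in FIBCL and 2.12, 2.68 and 2.59% in SCDM. Their annotated transcripts share no 31-base word, and the source of the signal was not tested.

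RNA-binding and splicing factors of neurons rose more often than they fell. Of 36 listed, 31 were tested, 12 rose and 3 fell. Srrm4, which switches on neuronal microexons, was 8.47, 8.29 and 8.78 in FIBCL and 0.438, 0.616 and 0.548 in SCDM (log2 fold change 2.63 ± 0.10, adjusted p = 4.5e-10). Celf5 was 17.7, 21.9 and 16.4 in FIBCL and 0.724, 0.729 and 0.898 in SCDM (log2 fold change 3.46 ± 0.25, adjusted p = 1.7e-07) and Elavl2 11.2, 10.6 and 10.6 in FIBCL and 0.133, 0.0934 and 0.0756 in SCDM (log2 fold change 3.42 ± 0.11, adjusted p = 2.0e-10), and both encode neuronal RNA-binding proteins. Mbnl1, the muscleblind splicing factor, fell from 151, 162 and 161 to 10.7, 10.6 and 12.7 (log2 fold change −3.69 ± 0.08, adjusted p = 5.6e-12). Actl6b, the neuron-specific subunit of the BAF chromatin remodeller, was at 0 in every SCDM, SCDM/FGF and sphere library and at 10.4, 10.05 and 10.6 in FIBCL (log2 fold change 3.51 ± 0.08, adjusted p = 1.4e-11). Rest, the repressor of neuronal genes, was 23.6, 21.4 and 22.8 in FIBCL and 15.2, 15.8 and 15.4 in SCDM, a difference under 2-fold.

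Transcription factor genes of neurons rose more often than they fell. Of 95 listed, 55 were tested, 24 rose and 13 fell, with a median of 0.72. Counted over all 95, the FIBCL libraries lay above SCDM for 49 genes and below for 18, against 34.0% and 40.7% of all genes tested. Among the 95, 25 genes were at 0 in all SCDM libraries. Sox11, a factor of immature neurons, was 25.7, 25.5 and 28.1 in FIBCL and 0.762, 0.757 and 0.728 in SCDM (log2 fold change 3.97 ± 0.08, adjusted p = 7.4e-12). Eomes, a T-box factor of cortical progenitors, was 12.6, 13.5 and 12.3 in FIBCL and 0.0476, 0 and 0 in SCDM (log2 fold change 3.76 ± 0.09, adjusted p = 1.3e-11). Isl2, a LIM factor of motor and sensory neurons, was 6.83, 5.79 and 5.91 in FIBCL and 0 in all 9 other libraries. Onecut2 (2.86 ± 0.09), Lhx2 (2.74 ± 0.11), Lmx1b (2.59 ± 0.09) and Scrt1 (3.04 ± 0.09) rose in the same way from near 0. Irx1 fell from 123, 125 and 124 to 6.95, 7.96 and 7.87 (log2 fold change −3.87 ± 0.06, adjusted p = 3.5e-13). Pou3f4, an otic mesenchyme factor, fell from 151, 141 and 136 to 26.8, 27.3 and 27.9 (log2 fold change −2.34 ± 0.05, adjusted p = 4.2e-12).

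Hox genes were examined as a family after their values were seen, so the counts describe them without a test of the list. Hox proteins set position along the body axis, and the inner ear and its ganglion arise beside the hindbrain, where only anterior paralogue groups are used. Of the 39 genes of the 4 clusters, all 3 FIBCL libraries lay above all 3 SCDM libraries for 32 and below for none. Among all genes tested the shares were 34.0% and 40.7%. In SCDM, 27 of the 39 were at 0 in every library, and in FIBCL none was. Hoxb7 was 15.8, 14 and 14.3 in FIBCL and 0, 0 and 0.0756 in SCDM (log2 fold change 3.94 ± 0.09, adjusted p = 1.1e-11). Hoxb9 was 13.3, 10.9 and 12.4 in FIBCL and 0, 0 and 0 in SCDM (log2 fold change 3.72 ± 0.09, adjusted p = 2.3e-11). Hoxb4 was 12.01, 12.9 and 11.8 in FIBCL and 0.0762, 0.196 and 0.151 in SCDM (log2 fold change 3.54 ± 0.09, adjusted p = 2.7e-11). Hoxa10 was 8.26, 7.59 and 8.68 in FIBCL and 0, 0 and 0 in SCDM (log2 fold change 3.20 ± 0.09, adjusted p = 6.1e-11). Of the posterior groups, Hoxc13 was 4.73, 4.57 and 4.09 in FIBCL and 0, 0 and 0 in SCDM (log2 fold change 2.45 ± 0.09, adjusted p = 4.6e-10). Members of all 4 clusters and of posterior as well as anterior groups were thus seen together. Hoxa2, the member with the highest SCDM mean, was 1.06, 1.74 and 1.104 in FIBCL and 2.104, 1.59 and 1.12 in SCDM and was not called, and Hoxb1 and Hoxd12 were above 0 in 1 FIBCL library each. Their summed level was 137, 133 and 130.4 in FIBCL, 2.94, 2.10 and 2.06 in SCDM, 1.565 to 3.21 in SCDM/FGF and 2.47 to 3.10 in spheres.

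**Figure D4:**
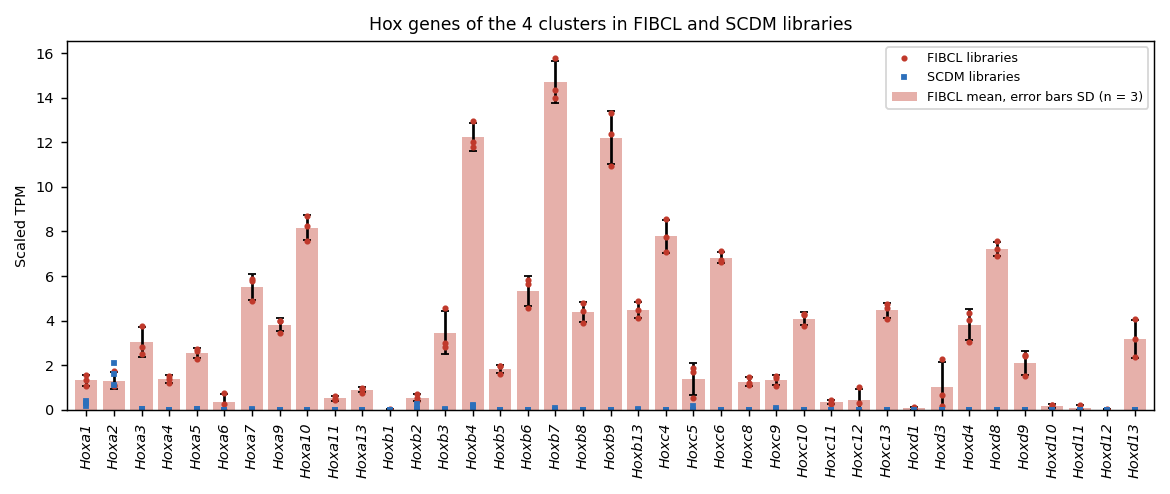
Scaled TPM of the 39 Hox genes in FIBCL (red points, with bars for the mean and error bars for the SD, n = 3) and SCDM (blue squares). FIBCL values stand above SCDM for 32 genes from all 4 clusters, and the SCDM squares lie at or near 0 except for Hoxa2, with a mean of 1.61.

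Target genes of the routes addressed by the mixture were read next, beginning with FGF and MAP kinase. Of 40 FGF pathway genes in the table, 33 were tested, 10 rose, Fgfr2 among them, and 5 fell. Dusp6, the ERK phosphatase induced by FGF, was 145, 146 and 127 in FIBCL and 32.1, 27.5 and 31.03 in SCDM (log2 fold change 2.17 ± 0.07, adjusted p = 2.2e-10). Etv5, an ETS factor downstream of FGF receptors, was 55.04, 54.9 and 54.5 in FIBCL and 16.2, 15.8 and 15.5 in SCDM (log2 fold change 1.73 ± 0.04, adjusted p = 2.3e-11). Dusp4, an ERK phosphatase of the nucleus, was 90.8, 92.5 and 92.2 in FIBCL and 4.42, 4.79 and 3.78 in SCDM (log2 fold change 4.13 ± 0.07, adjusted p = 1.3e-12). The SCDM/FGF means were 179 for Dusp6, 40.5 for Etv5 and 19.6 for Dusp4, so Dusp4 was the gene furthest above them in FIBCL. Spry4, an FGF feedback inhibitor, was 10.97, 9.48 and 9.17 in FIBCL and 1.79, 1.76 and 1.57 in SCDM (log2 fold change 2.00 ± 0.07, adjusted p = 3.7e-10), below its SCDM/FGF mean of 32.7. Spry1, at 3.77, 2.86 and 2.35 in FIBCL and 6.66, 6.94 and 8.098 in SCDM (log2 fold change −1.06 ± 0.13), passed the 2-fold limit only narrowly, and was at −0.91 after quantile normalisation, −0.94 without FIBCL replicate 3 and −0.98 without SCDM replicate 3, none of them called. Spry2 was 6.29, 6.32 and 5.26 in FIBCL and 13.2, 10.1 and 11.9 in SCDM and not called, but was called lower without the rescaling (−1.21). In SCDM/FGF the means of Spry1 and Spry2 were 29.4 and 35.95. The fibroblast ligand gene Fgf7 fell from 64.7, 61.6 and 58.6 to 1.18, 1.24 and 1.18 (log2 fold change −4.83 ± 0.10, adjusted p = 6.6e-12). Fgfr2, at 2639.9, 2895 and 4213 in FIBCL and 325, 406 and 350.4 in SCDM, was higher in FIBCL like the 8 abundant entries above and is not read as a receptor result.

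Wnt genes moved both ways. Of 72 Wnt genes in the table, 59 were tested, 19 rose and 16 fell, with a median of 0.09. Without the rescaling 15 rose and 17 fell, and the median turned to −0.28. Axin2, the feedback target most used to read beta-catenin activity, was 30.9, 29.9 and 30.4 in FIBCL and 2.31, 2.13 and 2.39 in SCDM (log2 fold change 3.26 ± 0.11, adjusted p = 3.0e-10). Nkd1, another feedback inhibitor, was 31.3, 34.2 and 33.8 in FIBCL and 5.01, 5.36 and 6.21 in SCDM (log2 fold change 2.39 ± 0.09, adjusted p = 7.5e-10). Sp5 was 9.14, 9.09 and 10.3 in FIBCL and 0.0667, 0.103 and 0 in SCDM (log2 fold change 3.31 ± 0.12, adjusted p = 3.3e-10), and Notum, the secreted enzyme that inactivates Wnt ligands, was 5.42, 5.06 and 5.81 in FIBCL and 0.105, 0.168 and 0.151 in SCDM (log2 fold change 2.49 ± 0.14, adjusted p = 2.2e-08). These 4 feedback targets were higher in each FIBCL library than in any library of the other groups. Lef1, a nuclear mediator and target, was 7.87, 7.75 and 9.71 in FIBCL and 14.03, 11.4 and 10.1 in SCDM, a difference under 2-fold in the other direction. The ligand genes Wnt11 (3.15 ± 0.19) and Wnt7b (3.15 ± 0.15) rose. Among the genes that fell were secreted modulators of the pathway, with Sfrp4 at 0.8495, 0.3202 and 0.394 in FIBCL and 134, 133 and 99.7 in SCDM (log2 fold change −6.34 ± 0.15, adjusted p = 1.9e-11), and Rspo3 (−4.95 ± 0.11), Sfrp2 (−3.76 ± 0.21) and Frzb (−2.88 ± 0.10). Ccn4, a Wnt-induced target, fell too (−3.77 ± 0.06).

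Cyclic AMP targets did not move as a block. Of 35 cAMP-responsive and immediate early genes in the table, 32 were tested, 9 rose and 6 fell (5 and 8 without the rescaling). Dusp1, an immediate early phosphatase, was 198, 215 and 206 in FIBCL and 15.9, 14.1 and 13.8 in SCDM (log2 fold change 3.73 ± 0.08, adjusted p = 5.8e-12), and its sphere mean was 81.4. Crem, whose short form ICER is induced by cAMP, was 68.5, 77.05 and 64.01 in FIBCL and 9.72, 14.3 and 9.799 in SCDM (log2 fold change 2.55 ± 0.16, adjusted p = 4.4e-08). Ier3 was 922, 942 and 957 in FIBCL and 126, 122 and 117 in SCDM (log2 fold change 2.94 ± 0.04, adjusted p = 1.2e-13). Against these, Nr4a1, a nuclear receptor induced by cAMP within hours, was 1.603, 1.28 and 1.62 in FIBCL and 12.9, 9.56 and 8.703 in SCDM (log2 fold change −2.17 ± 0.17, adjusted p = 2.7e-07), and Fos was 17.7, 19.9 and 17.2 in FIBCL and 54.3, 48.2 and 46.7 in SCDM (log2 fold change −1.40 ± 0.09, adjusted p = 7.0e-08). Pde4d, a cAMP phosphodiesterase, was 10.5, 10.7 and 10.6 in FIBCL and 6.06, 9.56 and 5.76 in SCDM, under 2-fold. Among 38 genes of cAMP synthesis and breakdown, 8 rose and 8 fell, with Gnal, the olfactory G protein that activates adenylyl cyclase, at 12.7, 12.5 and 11.1 in FIBCL and 0.1904, 0.2802 and 0.454 in SCDM (log2 fold change 3.33 ± 0.10, adjusted p = 9.5e-11), and Adcy7, an adenylyl cyclase common in blood cells, at 17.7, 17.3 and 16.8 in FIBCL and 105, 105 and 101 in SCDM (log2 fold change −2.52 ± 0.07, adjusted p = 7.6e-11).

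The cAMP response element (CRE) was looked for as the exact letters TGACGTCA, which read the same on both strands, in the RefSeq promoters of GRCm38.p6 from 250 bases before to 50 after each gene start. It was found in 54 of 1453 promoters of genes called higher (3.72%), 41 of 1849 of genes called lower (2.22%) and 391 of all 11400 promoters of tested genes (3.43%). The AP-1 letters TGAGTCA, searched on both strands, were found in 5.57, 5.84 and 4.55% of the same groups, and the TCF/LEF letters ATCAAAG in 2.89, 3.41 and 3.05%. These shares are a description, and a match is neither a bound site nor a cause. Of the 201 genes named by rule, 139 had a promoter in the table and 3 of them held a CRE, so these 3 are printed with the motif in capitals. Areg, the EGF receptor ligand amphiregulin, and Dusp1 rose, while Ch25h, the enzyme that makes 25-hydroxycholesterol, fell. Each line gives the 250 bases before the start, 5′ to 3′ on the strand of the gene, from chr5:91139349-91139598 (plus strand), chr17:26508473-26508722 (minus strand) and chr19:34475149-34475398 (minus strand).
Areg: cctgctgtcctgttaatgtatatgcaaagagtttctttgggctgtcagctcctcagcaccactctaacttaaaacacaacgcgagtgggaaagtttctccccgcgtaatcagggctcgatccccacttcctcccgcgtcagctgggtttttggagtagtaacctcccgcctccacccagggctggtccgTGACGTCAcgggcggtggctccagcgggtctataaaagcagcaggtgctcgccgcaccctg
Dusp1: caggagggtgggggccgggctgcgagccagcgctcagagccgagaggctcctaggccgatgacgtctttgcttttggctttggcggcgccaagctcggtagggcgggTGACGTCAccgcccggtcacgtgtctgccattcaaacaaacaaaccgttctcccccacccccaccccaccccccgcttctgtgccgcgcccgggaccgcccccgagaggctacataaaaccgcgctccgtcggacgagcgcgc
Ch25h: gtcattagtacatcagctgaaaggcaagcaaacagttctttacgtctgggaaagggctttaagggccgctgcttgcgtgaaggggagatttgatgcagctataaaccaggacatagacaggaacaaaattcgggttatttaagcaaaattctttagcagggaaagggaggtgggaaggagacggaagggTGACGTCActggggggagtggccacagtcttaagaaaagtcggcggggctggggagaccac
The motif began 61 bases before the start in Areg, 143 in Dusp1 and 61 in Ch25h. Areg was 124, 124 and 155 in FIBCL and 0.1904, 0 and 0.217 in SCDM (log2 fold change 6.90 ± 0.13, adjusted p = 2.4e-12), with an SCDM/FGF mean of 6.31. Ch25h was 0.395, 0.209 and 0.2102 in FIBCL and 33.97, 31.7 and 33.4 in SCDM (log2 fold change −4.74 ± 0.12, adjusted p = 3.4e-11). The same 8 letters at a like distance thus stood before a gene that rose and a gene that fell.

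BET and Myc genes were read for the bromodomain inhibitor. Hexim1, an inhibitor of the elongation factor P-TEFb whose RNA is widely used as a readout of BET inhibition, was 56.2, 55.5 and 59.3 in FIBCL and 25.5, 23.9 and 21.98 in SCDM (log2 fold change 1.23 ± 0.07, adjusted p = 2.9e-08). Serpini1, the neuronal serpin, which was placed on this list as a gene that BET inhibitors raise, was 15.8, 14.8 and 16.04 in FIBCL and 0.286, 0.2895 and 0.246 in SCDM (log2 fold change 3.70 ± 0.12, adjusted p = 2.3e-10). Myc, the growth regulator known to depend on BET proteins in many cells, was 5.31, 5.79 and 3.65 in FIBCL and 44.2, 42.1 and 45.02 in SCDM (log2 fold change −2.94 ± 0.11, adjusted p = 7.9e-10). All 3 moved apart from SCDM without overlap, and Hexim1 was within 2-fold without the rescaling (log2 fold change 0.83). Brd2, a BET protein gene, was 219.7, 213 and 219 in FIBCL and 114, 126 and 115 in SCDM, under 2-fold. Mxd4 and Mxd3, partners of the Myc network, fell by log2 fold changes of −3.01 and −3.03. In the whole list 3 of 23 rose and 4 fell, or 1 and 5 without the rescaling.

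Genes of the list for the LIF receptor, STAT3 and SOCS moved both ways. Socs3, the feedback inhibitor induced by STAT3, was 44.9, 42.7 and 41.2 in FIBCL and 18.2, 20.4 and 21.3 in SCDM (log2 fold change 1.07 ± 0.07, adjusted p = 8.1e-08), lower than its SCDM/FGF mean of 66.4, and it too was within 2-fold without the rescaling (0.68). Stat3 itself was 137, 131 and 130.2 in FIBCL and 97.9, 106 and 101 in SCDM, a difference of 0.38 that turned to −0.0186 without the rescaling. The receptor genes Lifr (−1.20 ± 0.16) and Il6st (−1.96 ± 0.11), the latter encoding gp130, fell. Il11, a cytokine of the same family, was 30.5, 29.9 and 29.95 in FIBCL and 0.609, 0.654 and 1.16 in SCDM (log2 fold change 4.12 ± 0.13, adjusted p = 1.3e-10). In the deposited table these libraries carry the name FIBC, which could also stand for the mixture without LIF, and whether LIF was present was not tested. In the list of 28 genes 4 rose and 4 fell, or 2 and 6 without the rescaling. Each share of 14.3% was near that of all genes tested, 13.2% higher and 16.2% lower.

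**Figure D5:**
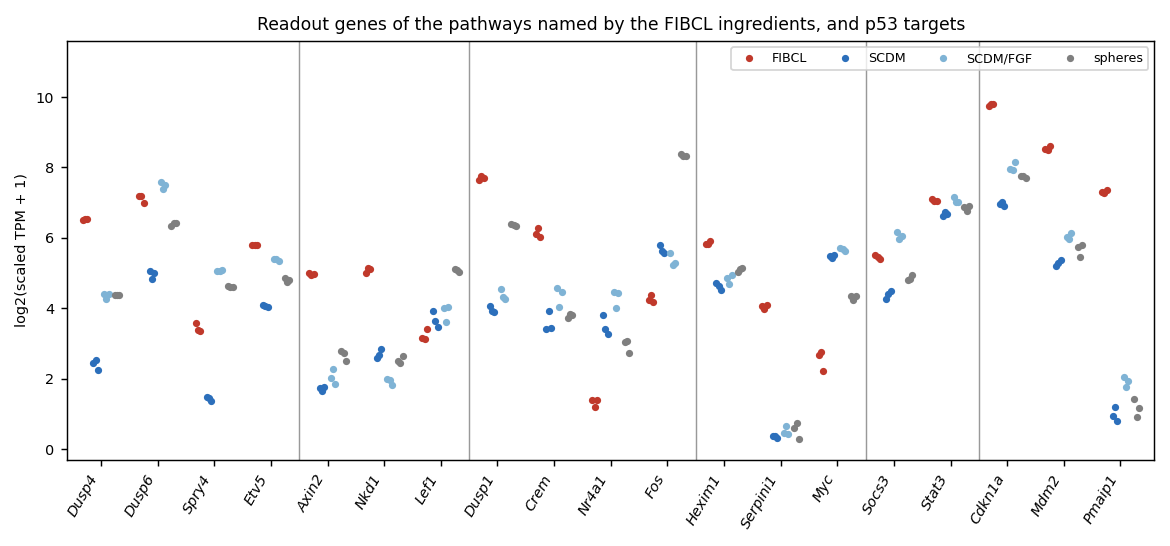
log2(scaled TPM + 1) of genes that read FGF, Wnt, cAMP, BET and LIF signalling and p53, in this order and separated by grey lines, with 1 point per library in the 4 groups. Axin2, Nkd1, Dusp1, Serpini1 and the p53 targets stand highest in FIBCL, Nr4a1, Fos and Myc stand lowest, and Spry4, Dusp6, Socs3 and Stat3 lie at or below SCDM/FGF.

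Of 52 genes listed for the TGF-beta and BMP family, 51 were tested, 13 rose and 11 fell. Inhba, the activin A subunit, was 162, 154 and 146 in FIBCL and 4.03, 4.56 and 3.03 in SCDM (log2 fold change 5.00 ± 0.13, adjusted p = 3.4e-11). Inhbb, its activin B counterpart, was 47.7, 45.4 and 45.1 in FIBCL and 0.895, 1.47 and 1.37 in SCDM (log2 fold change 4.40 ± 0.10, adjusted p = 8.4e-12). Id1, a target of BMP receptors, was 419, 433 and 466 in FIBCL and 29.98, 30.5 and 27.4 in SCDM (log2 fold change 3.86 ± 0.10, adjusted p = 2.6e-11). All 3 were above every SCDM library, and the SCDM/FGF means of Inhba and Inhbb were 21.05 and 23.9. Chrdl1, a secreted BMP antagonist, fell from 165, 187 and 185 to 0.323, 0.123 and 0.2102 (log2 fold change −7.20 ± 0.09, adjusted p = 9.4e-14), and Gdf10 fell with it (−5.92 ± 0.14). Among EGF family genes Areg, Tgfa (1.99 ± 0.10) and Ereg (1.56 ± 0.13) rose while Btc (−2.97 ± 0.10) and the receptor genes Egfr (−2.12 ± 0.10) and Erbb3 (−2.18 ± 0.12) fell.

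Receptors for the neurotrophins of SCDM were lower in FIBCL. Ntrk2, the BDNF receptor, was 1.81, 2.29 and 1.67 in FIBCL and 41.96, 45.1 and 38.6 in SCDM (log2 fold change −3.88 ± 0.09, adjusted p = 1.4e-11), with a mean of 201 in SCDM/FGF. Ngfr, the low-affinity receptor found on glia and neurons, was 4.32, 3.41 and 4.38 in FIBCL and 104, 100.0 and 91.9 in SCDM (log2 fold change −4.31 ± 0.11, adjusted p = 3.6e-11). Ret, the receptor for GDNF ligands, rose from 0.724, 0.841 and 1.04 to 13.4, 13.5 and 13.3 (log2 fold change 2.95 ± 0.10, adjusted p = 2.0e-10). Ptn, a heparin-binding growth factor of mesenchyme and glia, was 21.4, 22.03 and 18.8 in FIBCL and 837, 745 and 733 in SCDM (log2 fold change −5.15 ± 0.10, adjusted p = 2.6e-12). Over 23 genes tested, 6 rose and 9 fell, or 3 and 10 without the rescaling. In the Notch list 3 of 22 rose and 4 fell, or 2 and 7 without the rescaling. The shares of 13.6% and 18.2% were near those of all genes tested, 13.2% and 16.2%. Dner, a neuronal Notch ligand, was 49.99, 53.5 and 49.9 in FIBCL and 1.24, 1.298 and 0.387 in SCDM (log2 fold change 4.76 ± 0.17, adjusted p = 3.4e-10).

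Division genes were far lower in FIBCL. Of 60 genes of the cell cycle and DNA replication, 59 were tested, none rose and 52 fell, with a median of −2.45. The FIBCL libraries lay below SCDM for 58 of all 60, against 40.7% of all genes tested. Mki67, the proliferation antigen, was 0.0359, 0.0369 and 0.0394 in FIBCL and 15.99, 20.5 and 19.9 in SCDM (log2 fold change −4.25 ± 0.14, adjusted p = 2.0e-10). Cdk1, the mitotic kinase, was 1.12, 0.591 and 0.328 in FIBCL and 70.2, 69.7 and 73.7 in SCDM (log2 fold change −5.45 ± 0.20, adjusted p = 4.6e-10). Top2a, the topoisomerase of dividing cells, was 0.0957, 0.148 and 0.302 in FIBCL and 41.9, 44.8 and 49.95 in SCDM (log2 fold change −5.30 ± 0.12, adjusted p = 9.2e-12). The SCDM levels were above the sphere means of 5.46, 25.8 and 17.3. Pcna, which also serves repair, was 91.8, 93.01 and 91.5 in FIBCL and 102, 105 and 114 in SCDM, a difference under 2-fold. The D-type cyclin gene Ccnd1 was 62.8, 63.97 and 62.97 in FIBCL and 96.8, 90.9 and 92.6 in SCDM, also under 2-fold.

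In the list of D-type cyclins and cell cycle inhibitors 5 of 20 rose and 4 fell, or 4 and 7 without the rescaling. Targets of p53 rose more often than they fell. Of 30 p53 targets, all were tested, 19 rose and 3 fell, with a median of 1.13. The FIBCL libraries lay above SCDM for 24 and below for 5, against 34.0% and 40.7% of all genes tested. Without the rescaling 12 rose and 4 fell. Cdkn1a, the inhibitor p21, was 853, 888 and 894 in FIBCL and 125, 128 and 118 in SCDM (log2 fold change 2.82 ± 0.06, adjusted p = 5.3e-12). Mdm2, the ligase that degrades p53, was 366, 361 and 387 in FIBCL and 35.6, 38.3 and 40.01 in SCDM (log2 fold change 3.26 ± 0.09, adjusted p = 3.6e-11). Pmaip1, the proapoptotic protein Noxa, was 158, 155 and 163 in FIBCL and 0.933, 1.27 and 0.747 in SCDM (log2 fold change 6.34 ± 0.14, adjusted p = 9.9e-12). Their SCDM/FGF means were 259, 64.9 and 2.78, closer to SCDM than to FIBCL. Perp (5.05 ± 0.18), Plk3 (3.55 ± 0.09), Tnfrsf10b (2.59 ± 0.05), Phlda3 (1.98 ± 0.05) and Gadd45a (1.70 ± 0.05) rose too. Bbc3, which encodes Puma, was 15.8, 15.9 and 14.9 in FIBCL and 13.8, 11.9 and 15.04 in SCDM, and Bax was 299, 291 and 300.3 in FIBCL and 149, 151 and 160.2 in SCDM, both under 2-fold, and Trp53 itself fell (−1.04 ± 0.05, or −0.97 after quantile normalisation). Several of these genes also answer to other stresses or to growth factors, Ddit4 (3.44 ± 0.06) among them. Cdkn2a, which encodes p16 and p19Arf, was 309, 323 and 327 in FIBCL and 77.4, 69.6 and 76.8 in SCDM (log2 fold change 2.09 ± 0.11, adjusted p = 1.1e-08). Cdkn1c was 13.9, 16.5 and 10.8 in FIBCL and 15.2, 11.9 and 10.1 in SCDM, with overlapping groups, and its difference of 0.14 turned to −0.23 without the rescaling. Cdk5r2, an activator of the neuronal kinase Cdk5, was 11.7, 9.54 and 11.1 in FIBCL and 0, 0.02802 and 0 in SCDM (log2 fold change 3.54 ± 0.10, adjusted p = 5.7e-11).

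Clustered histone genes went against the other genes of division. Replication-dependent histone RNAs end in a stem loop and usually lack a poly(A) tail, and these libraries were selected for poly(A). Of 60 genes, 24 were tested, 17 rose and none fell. Over all 60, FIBCL lay above SCDM for 32 and below for 1, against 34.0% and 40.7% of all genes tested. The summed level was 547, 564 and 562 in FIBCL, 184, 180.5 and 171.5 in SCDM, 151.5 to 167 in SCDM/FGF and 114 to 138 in spheres. H2bc4 was the most abundant of those that rose, at 163, 166 and 171 in FIBCL and 39.3, 39.3 and 37.8 in SCDM (log2 fold change 2.07 ± 0.08, adjusted p = 7.1e-10). H4c9 was 40.6, 47.5 and 41.4 in FIBCL and 3.71, 4.85 and 5.28 in SCDM (log2 fold change 2.98 ± 0.20, adjusted p = 9.8e-08). The linker histone gene H1f2, at 75.5, 71.6 and 77.4 in FIBCL and 65.1, 64.9 and 63.02 in SCDM, differed by less than 2-fold. Histone genes of 1 class are near-identical in sequence, so how reads were shared among them is uncertain and the sum is the firmer value.

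Matrix genes fell more often than they rose. Matrix is laid down by fibroblasts, chondrocytes and fibrocytes of the cochlea and by glia. Of 80 non-collagen matrix genes, 74 were tested, 51 fell and 6 rose, with a median of −1.99. Mgp, the matrix Gla protein that inhibits calcification, at chr6:136872435-136875823, was 5.82, 5.91 and 5.4 in FIBCL and 14073, 13547 and 14239 in SCDM (log2 fold change −11.02 ± 0.05, adjusted p = 4.4e-17). Postn, a matricellular protein, was 0.586, 0.5296 and 0.762 in FIBCL and 1650.0, 1733 and 1790.4 in SCDM (log2 fold change −10.05 ± 0.11, adjusted p = 4.5e-14). Eln, which encodes elastin, was 0.1197, 0.222 and 0.2496 in FIBCL and 562, 596 and 643 in SCDM (log2 fold change −8.97 ± 0.33, adjusted p = 4.8e-10). The 3 genes behaved differently in the other groups, since Mgp had means of 16332 in SCDM/FGF and 14464 in spheres while Postn and Eln were at 193 and 12.6 in SCDM/FGF. Fn1, which encodes fibronectin, fell less, from 2842, 3441 and 3309.7 to 1282, 1235 and 1267 (log2 fold change −1.34 ± 0.08, adjusted p = 2.8e-08). Vcan, which encodes versican, was 109, 111 and 119 in FIBCL and 113, 145 and 147 in SCDM, and the groups overlapped. Spp1, which encodes osteopontin, was 8350.0, 8802 and 9106 in FIBCL and 4436, 5586 and 5984 in SCDM, under 2-fold in the other direction. Of the 6 that rose, Hapln4, a link protein of perineuronal nets, was 27.6, 29.2 and 28.1 in FIBCL and 0.181, 0.0187 and 0.08505 in SCDM (log2 fold change 4.74 ± 0.13, adjusted p = 4.4e-11), and Bcan, which encodes brevican of the same nets, rose as well (2.53 ± 0.23).

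Collagen genes, grouped after their values were seen, fell in 29 of 39 cases tested and rose in 3. Col3a1, of loose connective tissue, was 0.766, 2.02 and 0.9197 in FIBCL and 1123, 1185 and 1244 in SCDM (log2 fold change −9.09 ± 0.16, adjusted p = 1.5e-12). Col1a2, a chain of fibrillar collagen I, was 8.61, 8.19 and 7.61 in FIBCL and 3219.9, 3481 and 3455 in SCDM (log2 fold change −8.53 ± 0.07, adjusted p = 8.8e-15). Col2a1, the cartilage collagen, was 2.91, 3.49 and 2.79 in FIBCL and 4182, 4359 and 4416 in SCDM (log2 fold change −10.06 ± 0.25, adjusted p = 1.9e-11), and was already low in SCDM/FGF (mean 34.7). Col7a1, which anchors basement membranes, was the highest of those that rose, at 23.2, 14.3 and 25.2 in FIBCL and 2.69, 1.504 and 1.62 in SCDM (log2 fold change 2.88 ± 0.19, adjusted p = 9.6e-08). Matrix protease and inhibitor genes moved both ways, with 7 of 46 higher and 21 lower. Mmp10, a stromelysin, was 36.04, 38.3 and 41.96 in FIBCL and 0.0381, 0.131 and 0.331 in SCDM (log2 fold change 5.10 ± 0.12, adjusted p = 1.4e-11), and Mmp3, its close relative, was 0.861, 1.07 and 0.618 in FIBCL and 95.2, 158 and 204 in SCDM (log2 fold change −6.31 ± 0.21, adjusted p = 2.1e-10), against a mean of 5132 in SCDM/FGF. Timp1, an inhibitor of these proteases, rose from 1138, 1298 and 1447 to 3084, 3225 and 3047 (log2 fold change 1.27 ± 0.08, adjusted p = 3.8e-08), or by 0.87 without the rescaling. Among integrins and laminins 3 of 30 rose and 13 fell, and the steepest rises were those of Lama5 at 65.7, 63.3 and 65.7 in FIBCL and 1.53, 1.69 and 1.27 in SCDM (log2 fold change 4.73 ± 0.17, adjusted p = 4.9e-10) and Itga3, a laminin-binding integrin, at 54.8, 52.97 and 51.4 in FIBCL and 1.84, 1.57 and 1.34 in SCDM (log2 fold change 4.39 ± 0.10, adjusted p = 1.5e-11).

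Cell identity genes of the mesenchyme did not all follow the matrix. Of 42 mesenchymal transcription factors, 36 were tested, 11 rose and 16 fell, with a median of −0.57. Barx1, a homeobox factor of branchial and stomach mesenchyme, was 22.6, 24.3 and 27.1 in FIBCL and 0 in all 9 other libraries (log2 fold change 4.68 ± 0.09, adjusted p = 3.8e-12). Alx1, a craniofacial factor, was 5.85, 5.63 and 5.89 in FIBCL and likewise 0 in the other 9. Prrx1 was 59.2, 62.8 and 60.2 in FIBCL and 17.04, 15.1 and 15.3 in SCDM (log2 fold change 1.88 ± 0.08, adjusted p = 2.0e-09) and Twist1 101, 113 and 116 in FIBCL and 53.7, 42.4 and 48.5 in SCDM (log2 fold change 1.18 ± 0.08, adjusted p = 8.7e-08, or 0.78 without the rescaling), both mesenchymal factors that were above all SCDM libraries. Foxd1 (−3.20 ± 0.09), Meox1 (−3.72 ± 0.11), Tbx18 (−2.67 ± 0.07) and Foxc1 (−2.36 ± 0.06) fell.

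Contractile genes of smooth muscle and myofibroblasts fell more often than they rose. Of 28 in the table, 26 were tested, 12 fell and 1 rose. Acta2, smooth muscle actin, was 0.132, 0.0985 and 0.223 in FIBCL and 95.2, 85.05 and 64.5 in SCDM (log2 fold change −6.15 ± 0.18, adjusted p = 9.0e-11), with means of 6.09 in SCDM/FGF and 1.02 in spheres. Tagln, which encodes transgelin, was 0.598, 0.911 and 0.604 in FIBCL and 192, 171 and 142 in SCDM (log2 fold change −6.63 ± 0.31, adjusted p = 3.6e-09), and Myl9 fell with it (−5.45 ± 0.17). For these 3 genes SCDM was above every library of the other groups. The gene that rose was Myh11, the smooth muscle myosin, at a FIBCL mean of 2.56 (1.74 ± 0.09). Of 31 skeletal and cartilage genes, 18 were tested, 10 fell and 1 rose, and Dmp1 and Phex of mineralising cells fell by log2 fold changes of −7.43 and −5.71. Of 28 genes of cochlear fibrocytes and ion transport, 22 were tested, 12 fell and 4 rose. Otor, which encodes the cartilage-derived protein otoraplin, was 0.323, 0.554 and 0.223 in FIBCL and 931, 766 and 744 in SCDM (log2 fold change −9.22 ± 0.14, adjusted p = 6.6e-13), beside a sphere mean of 6729. Crym, a thyroid hormone-binding protein of fibrocytes, was 12.5, 12.2 and 13.5 in FIBCL and 468, 424 and 400.3 in SCDM (log2 fold change −4.97 ± 0.09, adjusted p = 2.2e-12). The gap junction genes parted, with Gjb2 (−3.43 ± 0.11) and Gjb6 (−3.53 ± 0.20) lower and Gja1, which encodes connexin 43, higher at 262, 276 and 271 in FIBCL and 13.3, 18.1 and 15.3 in SCDM (log2 fold change 4.04 ± 0.12, adjusted p = 1.2e-10).

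Glial genes fell more often than they rose. Of 37 Schwann, satellite glial and myelin genes, 35 were tested, 24 fell and 1 rose, with a median of −1.58. Cdh19, a cadherin of Schwann cell precursors, was 0.263, 0.0739 and 0.289 in FIBCL and 26.9, 24.7 and 23.3 in SCDM (log2 fold change −4.43 ± 0.09, adjusted p = 7.4e-12). Gfap, an intermediate filament of astrocytes and non-myelinating Schwann cells, was 0.1197, 0.0246 and 0.0394 in FIBCL and 36.4, 31.3 and 28.1 in SCDM (log2 fold change −4.95 ± 0.11, adjusted p = 1.3e-11). The levels of both in SCDM were below the sphere means of 61.9 and 61.7. Erbb3, the neuregulin receptor of Schwann cells, was 2.19, 1.64 and 1.77 in FIBCL and 12.3, 11.97 and 11.5 in SCDM (log2 fold change −2.18 ± 0.12, adjusted p = 1.8e-08). Pou3f1, a factor of promyelinating Schwann cells that neurons also use, was the gene that rose, at 2.86, 2.91 and 2.98 in FIBCL and 0.524, 0.635 and 0.661 in SCDM (log2 fold change 1.29 ± 0.11, adjusted p = 5.5e-07).

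Macrophage genes were far lower. Of 50 in the table, 49 were tested, 42 fell and 1 rose, with a median of −3.67. Csf1r, the receptor macrophages need to survive, was 0.538, 0.296 and 0.171 in FIBCL and 98.01, 100.4 and 117 in SCDM (log2 fold change −6.32 ± 0.15, adjusted p = 1.8e-11). The 3 chains of C1q, the first complement component, fell together, and C1qa was 0.562, 0.394 and 0.197 in FIBCL and 459, 381 and 408 in SCDM (log2 fold change −8.24 ± 0.11, adjusted p = 2.5e-13). Lyz2, which encodes lysozyme, was 16.8, 22.7 and 18.2 in FIBCL and 3917, 3588 and 3836 in SCDM (log2 fold change −7.56 ± 0.11, adjusted p = 3.1e-13). The SCDM and SCDM/FGF cultures, with SCDM/FGF means of 91.7, 543 and 3649, stood well above the sphere means of 5.19, 22.7 and 483. Cd68, a lysosomal protein not particular to macrophages, and Lgals3, at 57.1, 57.2 and 53.7 in FIBCL and 75.3, 92.6 and 101 in SCDM, differed by less than 2-fold. Without the rescaling Lgals3 was called lower (−1.05). Pf4, a chemokine of platelets and some macrophages, was the gene that rose, at 51.8, 49.8 and 47.5 in FIBCL and 8.57, 10.01 and 10.2 in SCDM (log2 fold change 2.26 ± 0.16, adjusted p = 1.2e-07). Complement genes fell in 17 of 25 tested and 1 rose, and C3, the central component, was 14.2, 8.49 and 11.9 in FIBCL and 278, 304 and 291 in SCDM (log2 fold change −4.57 ± 0.15, adjusted p = 2.0e-10). Clu, which encodes the complement inhibitor and chaperone clusterin, rose from 207, 203 and 219 to 741, 751 and 813 (log2 fold change 1.87 ± 0.05, adjusted p = 2.2e-11).

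Interferon-stimulated genes, used against viruses, were lower. All 44 listed were tested, none rose and 41 fell, with a median of −2.48. The FIBCL libraries lay below SCDM for all 44, against 40.7% of all genes tested. Isg15 was 0.981, 1.21 and 1.21 in FIBCL and 79.2, 79.1 and 134 in SCDM (log2 fold change −5.48 ± 0.37, adjusted p = 8.4e-08). Ifit3 was 0.0479, 0.419 and 0.591 in FIBCL and 29.3, 30.6 and 53.5 in SCDM (log2 fold change −4.81 ± 0.43, adjusted p = 1.0e-06). SCDM replicate 3 was the highest of the 3 SCDM libraries for both of these genes, and the summed level of the list was 1231, 1229 and 1636 in SCDM against 244, 260 and 247 in FIBCL. Its SCDM/FGF range was 925 to 1566. Macrophages carry many of these RNAs, and whether the fall was linked to that of the macrophage genes was not tested.

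Chemokine genes fell in 18 of 30 tested and rose in 3. Cxcl12, a chemokine of stromal cells, was 2.09, 3.71 and 4.19 in FIBCL and 1629.7, 1650.2 and 1591 in SCDM (log2 fold change −8.59 ± 0.20, adjusted p = 1.3e-11). Ccl7, which draws monocytes, was 1.08, 1.7 and 1.43 in FIBCL and 139.9, 134 and 146 in SCDM (log2 fold change −5.88 ± 0.09, adjusted p = 3.9e-13), beside a mean of 1214 in SCDM/FGF. Ptx3, a secreted pattern recognition protein on the list of NF-kappaB targets, was 0.718, 0.579 and 0.972 in FIBCL and 888, 901 and 1002 in SCDM (log2 fold change −9.05 ± 0.13, adjusted p = 3.4e-13). In that list 14 of 36 fell (24 without the rescaling) and 2 rose, and those were the prostaglandin enzymes Ptges, at 177, 186 and 193 in FIBCL and 4.63, 3.4 and 4.92 in SCDM (log2 fold change 5.14 ± 0.09, adjusted p = 1.9e-12), and Ptgs2, at 24.96, 24.9 and 28.9 in FIBCL and 8.71, 9.499 and 9.01 in SCDM (log2 fold change 1.43 ± 0.08, adjusted p = 1.8e-08). Bdkrb2, the bradykinin B2 receptor, was 151, 145 and 149 in FIBCL and 0.343, 0.682 and 0.529 in SCDM (log2 fold change 6.62 ± 0.11, adjusted p = 1.4e-12), with an SCDM/FGF mean of 31.04.

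Of 25 antigen presentation genes tested, 7 rose and 9 fell, or 4 and 10 without the rescaling. Cd40, a costimulatory receptor of the TNF family, was 281, 271 and 277 in FIBCL and 6.25, 4.57 and 7.56 in SCDM (log2 fold change 5.30 ± 0.14, adjusted p = 4.0e-11). H2-Ab1, the beta chain of MHC class II, was 57.7, 56.4 and 62.7 in FIBCL and 1.27, 0.747 and 1.002 in SCDM (log2 fold change 4.91 ± 0.12, adjusted p = 2.4e-11). Its partners did not follow, since the alpha chain gene H2-Aa was 0.718, 0.357 and 0.184 in FIBCL and 2.104, 1.74 and 2.27 in SCDM (log2 fold change −1.11 ± 0.17, with the call lost at −0.88 after quantile normalisation and −0.99 without FIBCL replicate 3), and the invariant chain gene Cd74 was 2.35, 1.02 and 0.736 in FIBCL and 16.9, 16 and 12.8 in SCDM (log2 fold change −2.83 ± 0.22, adjusted p = 3.3e-07). H2-Eb1, the other class II beta chain, was 2.8, 1.37 and 2.39 in FIBCL and 1.495, 0.841 and 1.01 in SCDM, with overlapping groups. Tapbp, which loads peptides onto class I, was 15.1, 14.4 and 12.7 in FIBCL and 159, 143 and 148 in SCDM (log2 fold change −3.32 ± 0.06, adjusted p = 2.1e-12), and B2m, the class I light chain, was 1748, 1896 and 1873 in FIBCL and 2426, 2270.0 and 2533 in SCDM, under 2-fold.

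Amino acid response genes, targets of ATF4, fell in 19 of 43 cases and rose in 1. Phgdh, the first enzyme of serine synthesis, was 13.9, 13.7 and 13.3 in FIBCL and 82.1, 85.6 and 85.7 in SCDM (log2 fold change −2.55 ± 0.08, adjusted p = 1.4e-10). Trib3 was 7.94, 7.02 and 7.59 in FIBCL and 40.1, 43.8 and 46.9 in SCDM (log2 fold change −2.39 ± 0.10, adjusted p = 1.2e-09) and Pycr1, of proline synthesis, 2.96, 1.56 and 1.51 in FIBCL and 41.4, 42.8 and 47.9 in SCDM (log2 fold change −3.93 ± 0.23, adjusted p = 2.6e-08). All 3 had means of at most 27.1 in SCDM/FGF and 21.4 in spheres, below each SCDM library. Asns, another target, was 73.2, 70.0 and 75.1 in FIBCL and 84.6, 89.1 and 92.5 in SCDM, under 2-fold. Cholesterol genes fell in 11 of 27 cases (17 without the rescaling) and rose in 2, and Insig1 was 14, 12.8 and 13.5 in FIBCL and 90.6, 86.7 and 87.2 in SCDM (log2 fold change −2.63 ± 0.04, adjusted p = 1.1e-12). Hmgcs1, the first committed step, was 29.1, 28.6 and 29.02 in FIBCL and 125, 119 and 112 in SCDM (log2 fold change −2.003 ± 0.04, adjusted p = 7.6e-12). Sqle, of the same pathway, at means of 44.2 in FIBCL and 68.5 in SCDM, differed by less than 2-fold, and by just over 2-fold without the rescaling. Apod, a lipid carrier of glia and fibroblasts, was 3.53, 3.92 and 2.904 in FIBCL and 2116, 1944 and 1888 in SCDM (log2 fold change −8.81 ± 0.08, adjusted p = 1.9e-14), while its SCDM/FGF mean was 22880.5.

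Redox and metal genes rose in part. Of 30 NRF2 targets and metallothioneins 10 rose and 4 fell. Mt1, a metallothionein, was 4705, 5169.9 and 4612 in FIBCL and 455, 477 and 503 in SCDM (log2 fold change 3.33 ± 0.06, adjusted p = 2.7e-12), and its mean of 4348 in SCDM/FGF was close to FIBCL. Srxn1 was 254, 257 and 231 in FIBCL and 37.5, 39.7 and 41.97 in SCDM (log2 fold change 2.61 ± 0.07, adjusted p = 4.5e-11) and Txnrd1 356, 337 and 319.9 in FIBCL and 56.5, 61.8 and 62.2 in SCDM (log2 fold change 2.47 ± 0.05, adjusted p = 7.6e-12), both enzymes of thiol repair. Nqo1, a classical NRF2 target, fell from 7.78, 6.39 and 7.89 to 2.896, 2.54 and 3.18 (log2 fold change −1.11 ± 0.13, adjusted p = 1.2e-05, or −0.96 after quantile normalisation). The ferritin chains parted, with the light chain gene Ftl1 at 19055, 20332 and 19210.0 in FIBCL and 5369, 5253 and 5462 in SCDM (log2 fold change 1.86 ± 0.06, adjusted p = 1.4e-10, or 0.71 after quantile normalisation) and the heavy chain gene Fth1 at 2235, 2399 and 2339 in FIBCL and 7000.4, 7279.7 and 7652 in SCDM (log2 fold change −1.65 ± 0.06, adjusted p = 6.1e-10). Both have many processed pseudogenes, so their split of reads is uncertain.

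All 13 mitochondrially encoded RNAs were called higher, between 1.12 and 2.05 on the log2 scale, with a summed level of 107600 to 118400 in FIBCL and 45400 to 48460 in SCDM. Without the rescaling 6 of the 13 were called, and after quantile normalisation 9 were called while mt-Co1 and mt-Atp8 turned to −0.16 and −0.37. With median ratio scaling 12 were called, and mt-Co3 lost its call there and without FIBCL replicate 2 or 3 or SCDM replicate 1 or 3, at 0.88 to 1.17. For 12 of the 13 all FIBCL libraries lay above all SCDM libraries, against 34.0% of all genes tested. mt-Co1, the catalytic subunit of cytochrome oxidase, was 19523, 20305 and 21075 in FIBCL and 8364, 7898 and 8048 in SCDM (log2 fold change 1.32 ± 0.06, adjusted p = 5.7e-09). Of 83 nuclear genes of the respiratory chain 6 rose and 1 fell (3 and 2 without the rescaling). These shares of 7.23% and 1.2% stood against 13.2% and 16.2% of all genes tested. The median of 0.34 turned to −0.06 without the rescaling. The largest rise was that of Cox6b2, a subunit isoform best known from testis, at 699.6, 756 and 722 in FIBCL and 33.9, 38.4 and 29.6 in SCDM (log2 fold change 4.38 ± 0.14, adjusted p = 1.5e-10). Lysosomal genes rose in 16 of 64 cases and fell in 10, or 8 and 15 without the rescaling. Proton pump subunits made up 10 of the 16, but only Atp6v1g1, Atp6v0b and Atp6v1h of them were also called without the rescaling, where Atp6v0a1, Atp6v1e1, Atp6v0e, Atp6v0d1, Atp6v1b2, Atp6v1a and Atp6v0c lay between 0.63 and 0.997 on the log2 scale. Atp6v1g1 was 885, 926 and 964 in FIBCL and 242, 222 and 229.8 in SCDM (log2 fold change 1.99 ± 0.06, adjusted p = 1.3e-10). Ctsb, a cathepsin, was 6143, 6630.0 and 6345 in FIBCL and 995, 1009.7 and 1037 in SCDM (log2 fold change 2.65 ± 0.05, adjusted p = 2.8e-12), and Ctss, the cathepsin of macrophages, was 1.08, 1.21 and 1.08 in FIBCL and 176, 169 and 181 in SCDM (log2 fold change −6.38 ± 0.06, adjusted p = 1.2e-14).

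In the list of glycolysis and lactate export 8 of 23 rose and 2 fell, with a median of 0.18 that turned to −0.22 without the rescaling. Slc16a1, the lactate transporter MCT1, was 287, 291 and 290.0 in FIBCL and 23.8, 23.8 and 20.7 in SCDM (log2 fold change 3.61 ± 0.06, adjusted p = 8.1e-13). Slc2a3, the neuronal glucose transporter, was 19.1, 19.1 and 17.9 in FIBCL and 4.14, 3.87 and 2.93 in SCDM (log2 fold change 2.09 ± 0.11, adjusted p = 9.8e-09), and Hk2 was 69.1, 66.01 and 62.1 in FIBCL and 18.6, 16.1 and 17.9 in SCDM (log2 fold change 1.85 ± 0.08, adjusted p = 3.1e-09). Aldoa and Pgk1, enzymes of the middle of the pathway, were at means of 1119 and 435 in FIBCL and 1362 and 603 in SCDM, under 2-fold. Of 85 cytosolic ribosomal protein genes tested 1 rose and 1 fell, or 14 fell without the rescaling, and of 30 ribosome biogenesis genes 2 fell.

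Fatty acid genes rose in 7 of 24 cases and fell in 5, and Elovl2, which elongates polyunsaturated fatty acids, was 22.02, 21.02 and 22.4 in FIBCL and 0.171, 0.215 and 0.0945 in SCDM (log2 fold change 4.30 ± 0.13, adjusted p = 7.9e-11). Lpl, which encodes lipoprotein lipase, was 1.91, 1.71 and 2.25 in FIBCL and 31.2, 42.4 and 42.5 in SCDM (log2 fold change −3.74 ± 0.11, adjusted p = 1.0e-10), in a list of lipid handling where 2 of 23 rose and 9 fell. Endoplasmic reticulum chaperones fell in 4 of 24 cases (11 without the rescaling) and none rose. The 16.7% that fell were near the 16.2% of all genes tested. Herpud1 was 16.8, 16.6 and 16.5 in FIBCL and 92.8, 90.4 and 88.8 in SCDM (log2 fold change −2.38 ± 0.05, adjusted p = 1.2e-11). Hypoxia genes rose in 6 of 23 cases and fell in 4, with Hilpda, a lipid droplet protein, at 174, 198 and 187 in FIBCL and 15.9, 16.4 and 16.5 in SCDM (log2 fold change 3.43 ± 0.08, adjusted p = 1.6e-11). In the BCL2 family 4 of 23 rose and 4 fell, each 17.4%, against 13.2% and 16.2% of all genes tested. Bcl2l11, the proapoptotic protein Bim, was 31.5, 31.01 and 37.3 in FIBCL and 5.87, 4.49 and 5.301 in SCDM (log2 fold change 2.46 ± 0.10, adjusted p = 1.6e-09). Cadherins and protocadherins had 10 higher and 10 lower of 32, and Cdh11, the cadherin of mesenchyme, was 14.5, 14.4 and 13.4 in FIBCL and 313, 307 and 300.1 in SCDM (log2 fold change −4.35 ± 0.05, adjusted p = 1.1e-13).

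Insulin-like growth factor genes fell in 10 of 17 cases and rose in 4. Igf1 was 0.7299, 0.603 and 0.749 in FIBCL and 178, 192 and 176 in SCDM (log2 fold change −6.76 ± 0.06, adjusted p = 1.9e-14). Igfbp5, a binding protein of stroma and glia, was 9.43, 8.65 and 8.54 in FIBCL and 1146, 1203 and 1141 in SCDM (log2 fold change −6.88 ± 0.06, adjusted p = 8.8e-15), and Igfbp4 fell too (−6.61 ± 0.09). Igf2 was 31.3, 24.5 and 30.6 in FIBCL and 1305, 1202 and 1144 in SCDM (log2 fold change −5.36 ± 0.13, adjusted p = 1.6e-11). H19, the noncoding RNA next to Igf2 in the same imprinted domain, was 1.05, 0.739 and 0.828 in FIBCL and 2249.7, 1979.6 and 2154 in SCDM (log2 fold change −10.15 ± 0.17, adjusted p = 1.3e-12), and it was at a mean of 1465 in SCDM/FGF. Other imprinted genes went both ways, with 12 of 31 higher and 9 lower, or 5 and 9 without the rescaling. Peg10, a gene of retroviral origin, was 102, 105 and 111 in FIBCL and 2.57, 2.905 and 2.64 in SCDM (log2 fold change 4.85 ± 0.08, adjusted p = 6.6e-13), and Nnat, which encodes neuronatin, was 77.2, 72.1 and 86.04 in FIBCL and 2.76, 3.05 and 2.52 in SCDM (log2 fold change 4.39 ± 0.13, adjusted p = 1.0e-10). Dcn, which encodes the small matrix proteoglycan decorin, was 3.099, 2.51 and 2.48 in FIBCL and 624, 504 and 478 in SCDM (log2 fold change −7.18 ± 0.10, adjusted p = 3.1e-13). Mest, a hydrolase of mesoderm, was 5.91, 5.38 and 5.87 in FIBCL and 145, 161 and 179 in SCDM (log2 fold change −4.59 ± 0.12, adjusted p = 3.8e-11).

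Fetal genes of the Lin28, HMGA and IGF2BP kind were listed together. Hmga2, a chromatin protein of fetal progenitors, was 81.9, 83.02 and 89.1 in FIBCL and 7.29, 8.75 and 7.42 in SCDM (log2 fold change 3.28 ± 0.07, adjusted p = 9.9e-12), beside means of 174 in SCDM/FGF and 54.2 in spheres. Igf2bp1, a fetal RNA-binding protein, was 4.94, 4.73 and 4.83 in FIBCL and 0.171, 0.205 and 0.132 in SCDM (log2 fold change 2.32 ± 0.12, adjusted p = 7.9e-09). Of 14 genes of this list, 9 were tested, 4 rose and none fell. FIBCL lay above SCDM for 11 of all 14 and below for 1, against 34.0% and 40.7% of all genes tested. Sox2, a stem and progenitor marker outside this list, fell from 14.2, 11.7 and 11.2 to 0.742, 0.259 and 0.355. In the retinoid list 2 of 16 rose and 7 fell, with Aldh1a2, which makes retinoic acid, at 96.2, 97.05 and 97.5 in FIBCL and 22.2, 20.4 and 20.3 in SCDM (log2 fold change 2.16 ± 0.06, adjusted p = 7.9e-11).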

How the data were processed

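Poly(A) RNA was sequenced as paired 150-base reads, which the authors trimmed with SeqPrep and Sickle, aligned with TopHat and quantified with RSEM. The genome build was not given in the sources used here. The deposited table gives TPM (transcript shares scaled to a common total) for 55487 genes in 12 libraries. TPM keeps no depth, so counting error is unknown and precision rests on 3 libraries per group. The libraries named FIBC in the table were taken for the samples titled FIBCL, the only group of that name.

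TPM was divided by library factors that rest on the 8434 genes at 5 TPM or more throughout, as the mean log2 ratio after trimming 30% at each end. log2(scaled TPM + 1) was fitted for the 16016 genes that reached 1 TPM in 3 or more libraries, with limma 3.58.1 in R 4.3.3, in 1 model of the 4 groups with a trended prior. Calls needed an adjusted p (Benjamini-Hochberg) under 0.05 and a 2-fold difference. The p-values measure the spread between libraries whose independence is known from their titles alone. The fit was tested on data simulated with normal noise and 200 changed genes, of which 94 were called at a log2 size of 1, 194 at 1.5 and 197 at 2. Of the unchanged genes 0, 1 and 2 were called. The changed genes had a mean of at least 2 on the log2(scaled TPM + 1) scale, so genes of lower mean were not covered.

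Members and lists were chosen with earlier results of these data known. The rule for named genes took the 15 largest changes in each direction with a mean of at least 10 scaled TPM, without genes the paper names, the 3 largest changes in each list with at least 2 scaled TPM in either group, and fixed pathway readouts. It gave 201 genes, some of which are not reported here. All other genes named in the text, and the Hox, collagen, epithelial, Bex and Tceal, polyamine, DUSP and TNF families, were chosen after their values were seen. Coordinates are GENCODE M21 on GRCm38. Promoters are RefSeq sequences. Genes under the expression limit were given on the same scale but not tested. Alternatives changed the scaling, pseudocount, filter, thresholds, model and libraries 1 at a time. Python 3.11.15 with pandas 2.3.3, numpy 2.4.6 and matplotlib 3.10.9 was used for lists and figures.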

Additional observations from a re-analysis of the deposited data

How the results depend on the processing

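The counts of 2107 genes higher and 2588 lower moved most with the thresholds. At a fold limit of 1.5 on the log2 scale 1264 genes were higher and 1598 lower, and with an adjusted p under 0.05 alone 5234 were higher and 6246 lower. On deposited TPM without rescaling 1490 were higher and 3726 lower, so that 28.6% of called genes were higher against 44.9% in the reported fit and 50.9% after quantile normalisation (2342 and 2259), and the median of all genes moved from −0.07 to −0.40. A pseudocount of 0.1 gave 2455 and 3214. Median ratio scaling, no trend, FIBCL and SCDM libraries alone and no filter on low values gave 2096 to 2175 genes higher and 2582 to 2593 lower. Without replicate 1, 2 or 3 of either group the counts lay between 2097 and 2126 higher and between 2593 and 2610 lower. Replicate numbers did not pair the libraries, since the correlations of their deviations were 0.02, 0.10 and 0.04, and a replicate block gave 2114 higher and 2594 lower. Of the 201 genes named by rule, 194 were called, and 190 of these kept their call under each alternative run gene by gene, which leaves out the fold limit of 1.5 and the adjusted p alone, while a limit of 5 TPM tested 194 of the 201. Stat3 turned to −0.0186 and Cdkn1c to −0.23 without rescaling, where the calls of Hexim1 and Socs3 were lost as well. Of 66 list medians, 44 kept their sign under all scalings run. The cause of these differences was not tested. Depth is not known, so low levels carry an unknown counting error, and base medium, neurotrophins and added agents changed together.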

Other observations

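5 further gene families were read, some of which share members with the lists above, such as Cdh1, Dusp1, Dusp4, Dusp6 and Cd40. They were picked after their values were seen, so their counts are descriptions with no test of the family. Epithelial junction and surface genes, which neither glia nor neurons usually carry, were mostly higher. Against 34.0% above and 40.7% below among all genes tested, all FIBCL libraries lay above all SCDM libraries for 28 of 38 and below for 2. Cdh1, which encodes E-cadherin, the defining cadherin of epithelia, was 1 of these 2, at 0.538, 0.185 and 0.512 in FIBCL and 9.06, 9.08 and 8.22 in SCDM (log2 fold change −2.80 ± 0.12, adjusted p = 1.9e-09). Their summed level was 388, 381 and 395 in FIBCL and 76.7, 76.3 and 65.6 in SCDM. Dsp, which encodes the desmosomal protein desmoplakin, was 30.5, 28.02 and 29.4 in FIBCL and 0.00952, 0.00934 and 0 in SCDM (log2 fold change 4.91 ± 0.09, adjusted p = 1.5e-12). Spint1, an inhibitor of epithelial surface proteases, was 39.6, 36.7 and 37.6 in FIBCL and 0, 0 and 0.104 in SCDM (log2 fold change 5.24 ± 0.13, adjusted p = 2.6e-11). Csn3, the milk protein kappa-casein and 1 of the largest changes by rule, was 265, 302 and 304 in FIBCL and 0.171, 0 and 0 in SCDM (log2 fold change 8.11 ± 0.26, adjusted p = 1.6e-10), with means of 3.51 in SCDM/FGF and 0.196 in spheres.

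Bex and Tceal genes are small X-linked adaptor genes common in neurons and endocrine cells. Of 12, FIBCL lay above SCDM for 10 and below for 1, against 34.0% and 40.7% of all genes tested. Their sums were 3175, 3184 and 3239 in FIBCL and 673, 639.9 and 647 in SCDM. Bex4 was 164, 175 and 175 in FIBCL and 0.647, 1.19 and 0.501 in SCDM (log2 fold change 6.62 ± 0.18, adjusted p = 3.9e-11) and Bex2 was 177, 186 and 189 in FIBCL and 0.838, 1.11 and 1.06 in SCDM (log2 fold change 6.53 ± 0.11, adjusted p = 1.5e-12). Enzymes of arginine and polyamines summed to 4068, 4224 and 4107 in FIBCL and 1230.0, 1188 and 1226 in SCDM. Ass1, which makes argininosuccinate, was 1056, 1121 and 1075 in FIBCL and 25.1, 28.3 and 31.3 in SCDM (log2 fold change 5.22 ± 0.08, adjusted p = 6.1e-13), and Odc1, the first enzyme of polyamine synthesis, was 1526, 1590.4 and 1514 in FIBCL and 113, 112 and 122 in SCDM (log2 fold change 3.72 ± 0.05, adjusted p = 2.2e-13).

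Dual specificity phosphatases, to which Dusp1, Dusp4 and Dusp6 belong, rose in 9 of 21 cases tested and fell in 3, against 13.2% and 16.2% of all genes tested. Ligands and receptors of the TNF family rose in 12 of 28 and fell in 10, with Cd40 the most abundant of the steep rises. On the scale of single libraries, Cd40 was at least 270.6 scaled TPM in FIBCL and at most 7.56 in the 9 other libraries.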
